A study of Mus musculus with 12 samples.

Results

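The proliferation genes described here are 50 genes of the cell division cycle, 20 that act in S phase and 30 that act in mitosis, taken by gene symbol from 2 named lists. All 50 were among the 18926 genes of the deposited tables, and all 50 were among the 18053 genes with enough counts to be tested, with at least 277 counts in every library. They were measured by RNA sequencing in S1, a gastric cancer cell line from the ChetPS mouse, so all groups share its engineered alleles, which are Smad4 F/F, Trp53 F/F and Cdh1 F/+. There were 12 libraries, 3 in each of 4 groups that the labels give by genotype: Control (cells with a non-targeting guide), Rasa1 KO, Nf2 KO and double KO. Cas9 was carried in by PiggyBac and guides by lentivirus, and cells grew as tumorspheres in low-attachment plates, although the labels name the cell type as monolayer cell. Knockout cells were kept as pools after drug selection rather than grown from 1 clone. No source used here says that the libraries come from separate cultures, and the study's own legend calls them technical replicates, so the p-values below measure only the spread between these libraries.

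Cells copy their DNA once per cycle in S phase and divide the copies in mitosis. Genes of licensing, DNA synthesis and nucleotide supply are mostly transcribed from late G1 into S phase, through E2F factors, whereas cyclin B, Cdk1 and the genes of spindle, kinetochore and cytokinesis peak in G2 and mitosis, where MuvB complexes with Mybl2 and Foxm1 act through promoter elements called CHR. In gastric epithelium, dividing cells are found mainly in the isthmus of the glands, and raised levels of both gene classes are a common feature of gastric tumours. In bulk RNA, a larger share of dividing cells and more RNA per dividing cell cannot be told apart.

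The 2 targeted genes were read first, since they check the labels. Nf2, which encodes the tumour suppressor merlin of the Hippo pathway, was at 58.1, 61.0 and 55.4 CPM in the control libraries, 11.6, 11.9 and 12.1 in the labelled Rasa1-KO libraries, 14.3, 13.2 and 13.2 in Nf2-KO and 62.6, 57.6 and 56.4 in the labelled double-KO libraries, where CPM is the count scaled to library size. The libraries labelled Rasa1-KO were thus as low as Nf2-KO, whereas the labelled double-KO ones were at the control level (log2 fold change -2.29 ± 0.09 SE, edgeR adjusted p = 2.9e-08 for labelled Rasa1-KO and log2 fold change 0.02 ± 0.09 SE, edgeR adjusted p = 0.93 for labelled double-KO). Rasa1, which encodes a Ras GTPase-activating protein, was at 60.5, 74.9 and 78.5 CPM in the control libraries, 34.5, 30.4 and 30.8 in the labelled Rasa1-KO libraries, 97.2, 101 and 97.2 in Nf2-KO and 17.7, 20.6 and 23.3 in the labelled double-KO libraries. It was below control in both sets labelled as lacking it and lower in those labelled double-KO. The names of the deposited tables give these 2 groups the other way round, so the groups are called labelled Rasa1-KO and labelled double-KO here, and the comparisons are also given with the labels exchanged where that changes them. A guide need not lower the mRNA of its target, which concerns only the control-level Nf2 of the labelled double-KO libraries. The labelled Rasa1-KO libraries have low Nf2 mRNA although their label names no Nf2 guide. The paper reports that knockout was checked by western blot. It also reports Hippo/YAP target genes raised, or tending upward, in Nf2-KO and double-KO tumorspheres. Whether the labels are exchanged was not tested here.

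1 control library, the one whose title carries no number, stood apart from the other two. It had the most counts of the 3, 95340850, and was the highest of the 3 control libraries for 18 of the 20 S-phase genes and 22 of the 30 mitotic genes, against 45.5% of all tested genes, and the lowest for E2f1, Foxm1, Mki67, Anln, Plk1, Cenpf, Cenpe and Rrm2. The median SD of log2 CPM among the 3 control libraries was 0.35 for S-phase genes and 0.28 for mitotic genes, whereas it lay between 0.06 and 0.11 in the other 3 groups. Over all tested genes it was 0.39 in control and 0.11 to 0.18 in the other groups, so the wide control spread is not particular to the members. Library totals ran from 43818139 counts in the control library numbered 2 to 96674463 in the labelled double-KO library numbered 1. The counts of called members and of the other gene lists are therefore followed by their values without that unnumbered library, in fits that tested 18180 genes. It was picked for this after the data were seen. Since it was highest in control for most members, leaving it out raises most of their fold changes against control by construction. More calls against control in those fits are thus no separate result.

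The cell type was read from marker lists. Of 14 markers of gastric epithelium, 8 were analysed, and their summed level was 6080.1, 4293 and 3153 CPM in control, 7318, 7052 and 7420.3 in labelled Rasa1-KO, 4847, 4810.2 and 5360.5 in Nf2-KO and 6847, 6101 and 5917 in labelled double-KO libraries, with the keratin Krt8 the most abundant in every library. The markers of mature gastric cells were low: Tff1 and Tff2 stayed under 2.5 CPM, Muc5ac at 7.40 CPM or less and Atp4a at 2.80 CPM or less. Of 8 fibroblast markers, 6 were analysed, and their summed level was 73.8, 921 and 738 CPM in control, 2476, 2613 and 2579 in labelled Rasa1-KO, 6990.1, 7255 and 7583 in Nf2-KO and 116, 274 and 268 in labelled double-KO libraries. The collagen gene Col3a1 was the most abundant of them in every library, and Dcn, at 31.9, 73.6 and 76.9 CPM in control and 33.9, 38.4 and 38.4 in Nf2-KO, did not share that order. The unnumbered control library was far below its 2 partners in the fibroblast sum. Epcam, an epithelial adhesion gene, was at 62.8, 68.1 and 62.1 CPM in control, 21.8, 22.6 and 21.7 in labelled Rasa1-KO, 9.97, 10.7 and 10.4 in Nf2-KO and 23.6, 42.7 and 41.5 in labelled double-KO libraries. Of 7 immune markers only Ptprc was analysed and stayed at 0.572 CPM or less, and the 3 endothelial markers analysed of 5 summed to at most 2.20 CPM. The fibroblast sum, Epcam and the proliferation genes all differed between the groups, though not in the same order. In labelled double-KO against control, fibroblast markers had a median log2 fold change of -1.55 (1 of 6 called). The median of mitotic genes there was 0.47 (17 of 30 called). The part of the fibroblast sum and Epcam in the results below was not tested. The same holds for replication-dependent histone genes, which took 0.208% to 0.400% of counts in control, 0.484% to 0.518% in labelled Rasa1-KO, 0.534% to 0.598% in Nf2-KO and 0.367% to 0.429% in labelled double-KO libraries.

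The promoters of the 2 lists held E2F and CHR words in different shares, a feature that the choice of genes did not use. A promoter window of 300 bases, from 250 before to 50 after the annotated start (RefSeq, GRCm38.p6), was matched for 43 of the 50 genes, 18 of S phase and 25 of mitosis, and searched on both strands. The words were, for E2F, TTTCCCGC, TTTCGCGC, TTTGCCGC and TTTGGCGC, for the CHR, TTTGAA and TTCGAA, and for the CCAAT box, CCAAT. An E2F word was in the window of 8 of the 18 S-phase genes (44.4%) and of 1 of the 25 mitotic genes (4.0%), against 4.29% of 12666 tested genes with a window. A CHR word was in 4 of the 18 S-phase genes (22.2%) and in 19 of the 25 mitotic genes (76.0%), against 17.3% of tested genes. A window with both a CHR word and CCAAT was found for 3 of the S-phase genes and for 17 of the mitotic genes (68.0%), against 7.38% of tested genes. These matches are a description of letters in a window and not of bound sites.

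The 180 bases before the start are shown for 2 S-phase and 4 mitotic genes, 5′ to 3′ on the gene's strand, with matched words in capitals: runs of 8 or more letters are E2F words, runs of 6 are CHR words, and CCAAT or its reverse ATTGG is the CCAAT box. Mcm6 (chr1:128359706-128359885, minus strand) shows E2F words without a CHR word, and its first run is 2 overlapping words on opposite strands. Rrm2 (chr12:24708074-24708253, plus strand) is the S-phase gene with the largest change in labelled Rasa1-KO against control, with or without the unnumbered control library, and held none of the words in its window except CCAAT. Cdk1 (chr10:69352913-69353092, minus strand) is the only mitotic gene with an E2F word. Ccnb2 (chr9:70421555-70421734, minus strand), Cdc20 (chr4:118437344-118437523, minus strand) and Kif11 (chr19:37376202-37376381, plus strand) hold both CHR words and CCAAT boxes, as the windows of most mitotic genes did.
Mcm6: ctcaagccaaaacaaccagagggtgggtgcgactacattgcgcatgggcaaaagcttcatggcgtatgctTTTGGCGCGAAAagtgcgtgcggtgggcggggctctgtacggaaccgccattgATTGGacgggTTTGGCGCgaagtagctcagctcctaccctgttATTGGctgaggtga
Rrm2: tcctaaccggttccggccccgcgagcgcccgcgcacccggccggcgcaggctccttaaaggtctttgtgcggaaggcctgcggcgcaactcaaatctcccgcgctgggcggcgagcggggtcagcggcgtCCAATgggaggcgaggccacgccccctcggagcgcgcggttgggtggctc
Cdk1: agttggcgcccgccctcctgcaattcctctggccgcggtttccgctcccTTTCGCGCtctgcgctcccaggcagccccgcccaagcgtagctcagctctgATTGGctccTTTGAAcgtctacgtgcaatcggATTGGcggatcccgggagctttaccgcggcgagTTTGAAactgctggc
Ccnb2: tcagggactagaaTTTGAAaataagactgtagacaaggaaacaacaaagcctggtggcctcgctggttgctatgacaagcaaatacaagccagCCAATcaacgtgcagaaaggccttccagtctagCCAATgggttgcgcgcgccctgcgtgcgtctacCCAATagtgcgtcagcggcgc
Cdc20: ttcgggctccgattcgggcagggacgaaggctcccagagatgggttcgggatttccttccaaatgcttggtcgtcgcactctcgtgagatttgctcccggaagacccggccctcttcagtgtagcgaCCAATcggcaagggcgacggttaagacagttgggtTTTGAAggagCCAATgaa
Kif11: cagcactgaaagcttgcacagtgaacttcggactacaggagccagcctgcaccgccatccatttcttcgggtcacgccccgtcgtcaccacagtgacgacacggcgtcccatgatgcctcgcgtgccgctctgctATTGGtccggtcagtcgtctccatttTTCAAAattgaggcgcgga

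**Figure D1:**
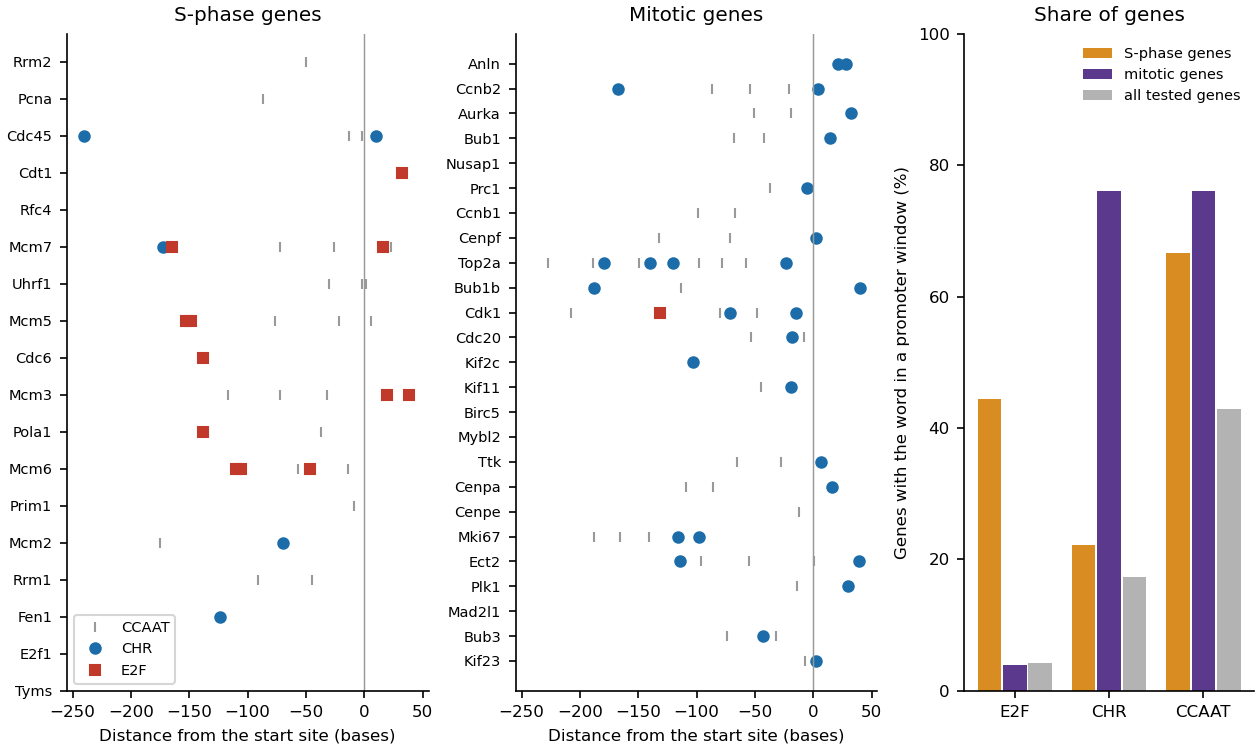
Promoter words of the members. The left and middle panels plot the distance of each E2F, CHR and CCAAT word from the start site, in bases, in the first annotated window of each gene, with genes in the order of their log2 fold change in Nf2-KO, and the bars on the right give the share of genes with a word in any window. E2F words lie mostly in the S-phase panel and CHR words in the mitotic panel, where 76.0% of genes had one.

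Per length, the members covered a wide range. Averaged over the 12 libraries, Pcna, the sliding clamp of DNA polymerases, was highest at 90.5 FPKM, a read level scaled by gene length and library size, followed by Top2a at 51.4 FPKM and Mcm7 at 44.9 FPKM. The transcription factor genes Mybl2 at 2.13 FPKM, E2f1 at 2.21 FPKM and Foxm1 at 3.07 FPKM were among the lowest, with Cdc6 at 3.12 FPKM.

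Across the groups, both lists were highest in Nf2-KO and the mitotic list lay further from control than the S-phase list. The median log2 CPM of the 30 mitotic genes, relative to the control mean of each gene, was 0.26, -0.04 and -0.17 in the control libraries, 0.87, 0.88 and 0.83 in labelled Rasa1-KO, 1.29, 1.33 and 1.39 in Nf2-KO and 0.52, 0.49 and 0.48 in labelled double-KO libraries. No 2 groups overlapped in this median. The median of the 20 S-phase genes was 0.35, -0.07 and -0.27 in control, 0.23, 0.27 and 0.29 in labelled Rasa1-KO, 0.69, 0.72 and 0.77 in Nf2-KO and 0.38, 0.30 and 0.31 in labelled double-KO libraries. Here Nf2-KO stood above all others, and the unnumbered control library lay above every labelled Rasa1-KO library and among the labelled double-KO libraries. The difference of the 2 medians within a library was -0.10, 0.03 and 0.10 in control, 0.64, 0.62 and 0.54 in labelled Rasa1-KO, 0.61, 0.61 and 0.61 in Nf2-KO and 0.14, 0.20 and 0.17 in labelled double-KO libraries. Relative to the control mean, mitotic genes thus lay about 0.6 log2 units further up than S-phase genes in the 6 libraries with low Nf2. In this difference each labelled double-KO library was above each control library. Against the numbered control libraries only, the mitotic medians were 1.00, 0.96 and 0.99 in labelled Rasa1-KO and 1.47, 1.47 and 1.54 in Nf2-KO. The S-phase medians were then 0.45, 0.51 and 0.51 in labelled Rasa1-KO and 0.83, 0.91 and 0.92 in Nf2-KO. The gap in labelled Rasa1-KO was narrower then. The mean levels followed the order Nf2-KO, labelled Rasa1-KO, labelled double-KO, control in 25 of 30 mitotic genes (83.3%) and 8 of 20 S-phase genes (40.0%), against 11.0% of all tested genes. With the control mean taken over the other 2 libraries, an alternative chosen after seeing the data, it held for 25 mitotic genes (83.3%) and 9 S-phase genes (45.0%), against 12.8%.

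**Figure D2:**
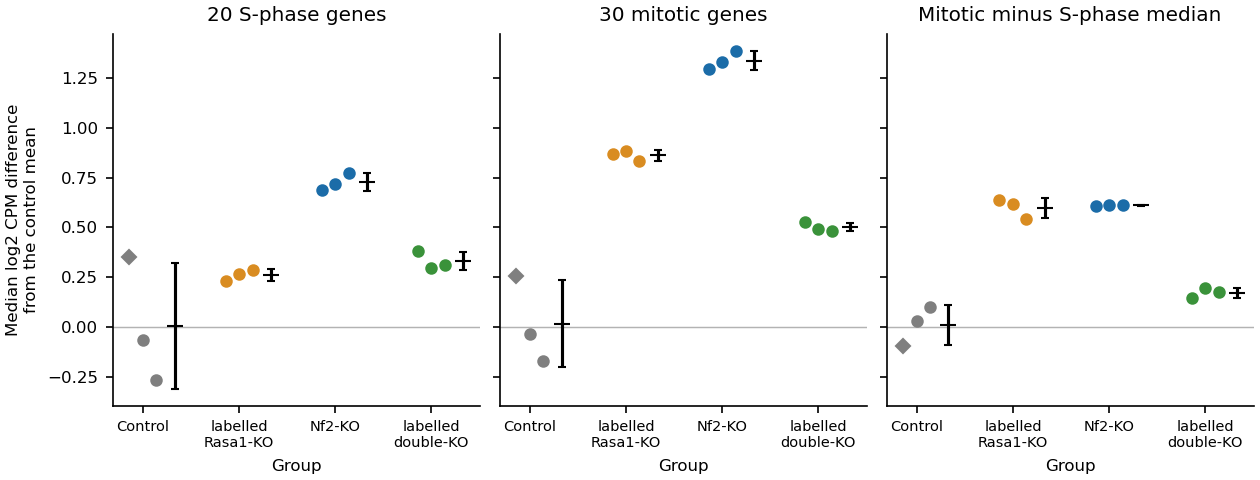
List medians in every library. The points give the median over 20 S-phase genes, over 30 mitotic genes and their difference, in log2 CPM relative to the control mean, the diamond marks the unnumbered control library, and black bars give the mean and SD of 3 libraries. Mitotic medians lie between -0.17 and 0.26 in control and between 1.29 and 1.39 in Nf2-KO.

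**Figure D3:**
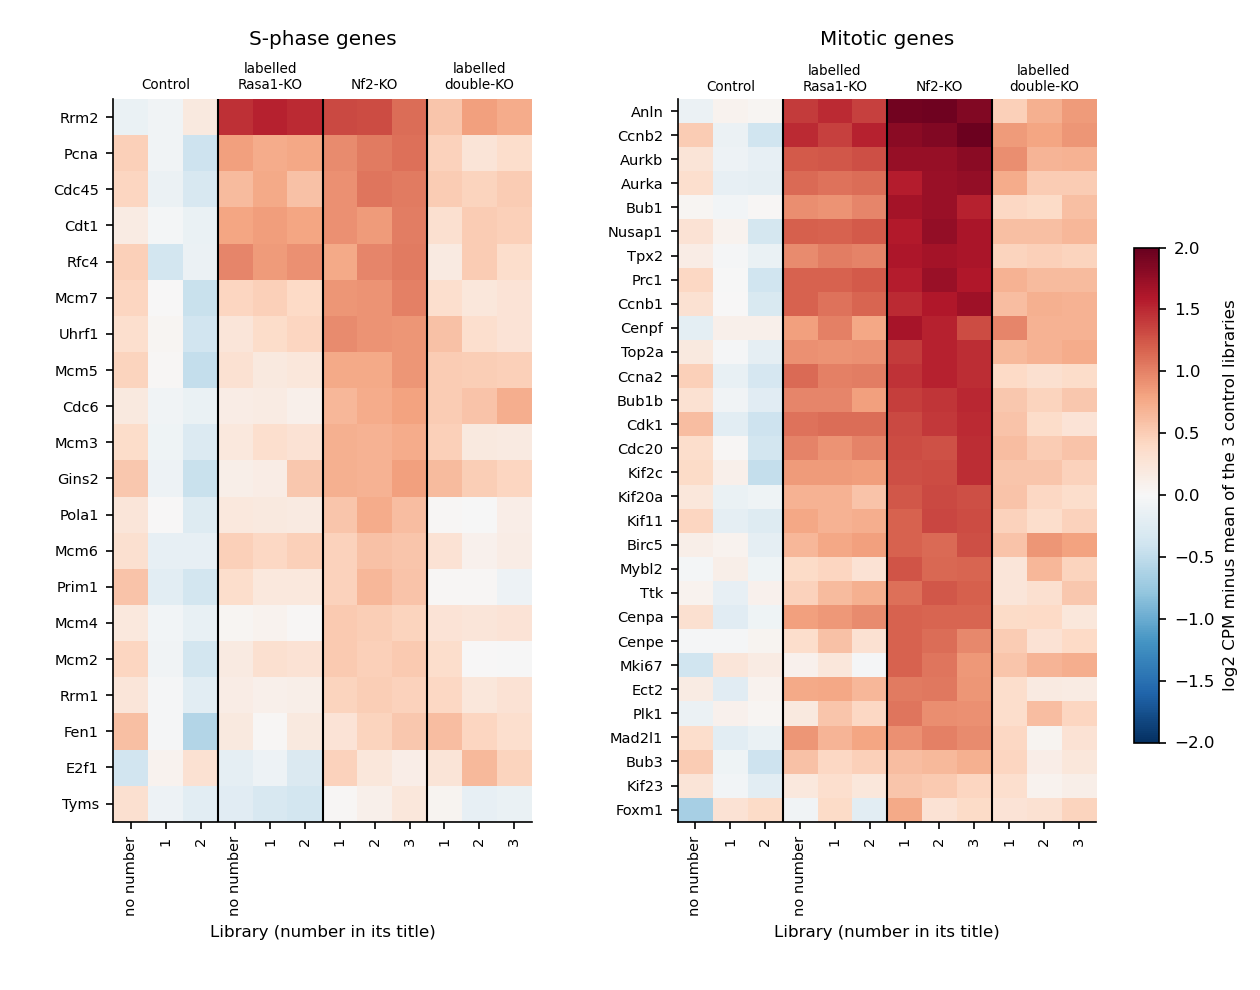
All 50 members in all 12 libraries. Colour gives log2 CPM minus the mean of the 3 control libraries, with rows ordered by the log2 fold change in Nf2-KO. The Nf2-KO columns are the most strongly coloured for nearly all mitotic genes, and the unnumbered control library differs from its 2 partners in most S-phase rows.

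The comparison of Nf2-KO with control asked what loss of Nf2 alone went with. Of the 30 mitotic genes, 29 rose and 0 fell, and of the 20 S-phase genes, 16 rose and 0 fell (edgeR's quasi-likelihood test, adjusted p under 0.05 by Benjamini-Hochberg over 18053 genes). By the same rule, 20.6% of all tested genes were higher and 22.2% lower. The median log2 fold change was 1.32 for mitotic genes (range 0.43 to 1.91) and 0.69 for S-phase genes (range 0.10 to 1.25), against -0.07 over all tested genes. With the unnumbered control library left out, 29 mitotic and 19 S-phase genes rose, including all those called before, against 30.6% of tested genes higher and 31.0% lower, and the medians were 1.50 and 0.88. By the rule of the study, a fold change of at least 3 with a raw p under 0.05, 8 mitotic genes, Anln, Ccnb2, Aurkb and Tpx2 among them, and 0 S-phase genes passed, against 11.4% of tested genes. Without the unnumbered control library this rule left 12 mitotic and 0 S-phase genes, against 15.4%. Of the 45 calls by adjusted p, 42 held whichever single library was left out. Mcm2, Gins2 and Bub3 were lost in at least 1 of these fits. How many of all called genes held in this way is not given, here or for the comparisons below. Such counts are therefore not read as particular to the members.

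All 10 genes of origin licensing and the replicative helicase rose in Nf2-KO. Mcm5, a subunit of the MCM helicase, was at 72.5, 53.6 and 38.2 CPM in the control libraries, 65.2, 60.9 and 61.9 in the labelled Rasa1-KO libraries, 90.0, 89.6 and 98.1 in Nf2-KO and 75.4, 74.6 and 73.5 in the labelled double-KO libraries. Nf2-KO was above all other libraries, while the control libraries were spread widely (log2 fold change 0.76 ± 0.18 SE, edgeR adjusted p = 0.0048). Mcm2, another subunit, was at 71.7, 50.8 and 41.5 CPM in the control libraries, 60.1, 66.3 and 65.3 in the labelled Rasa1-KO libraries, 76.3, 74.1 and 76.9 in Nf2-KO and 68.1, 53.6 and 53.2 in the labelled double-KO libraries. Only Nf2-KO lay above the whole control range (log2 fold change 0.47 ± 0.17 SE, edgeR adjusted p = 0.045), and the call depended on single libraries. The log2 fold change of Mcm2 was 0.72 without the unnumbered control library (edgeR adjusted p = 0.00027) and 0.30 without the control library numbered 2 (edgeR adjusted p = 0.13), and 10 of the 12 fits that left out 1 library did not call it. Mcm4 was at 69.1, 57.7 and 53.9 CPM in the control libraries, 61.5, 62.7 and 60.9 in the labelled Rasa1-KO libraries, 86.3, 83.8 and 81.4 in Nf2-KO and 72.1, 70.8 and 72.0 in the labelled double-KO libraries, and Mcm7 at 118, 89.0 and 64.9 CPM in the control libraries, 119, 122 and 116 in the labelled Rasa1-KO libraries, 163, 163 and 176 in Nf2-KO and 112, 103 and 106 in the labelled double-KO libraries. The Nf2-KO libraries were highest for both subunits, with log2 fold changes of 0.48 ± 0.10 SE and 0.89 ± 0.17 SE. Cdt1 (chr8:122568015-122573130), which loads the helicase onto origins, was at 29.0, 25.4 and 23.8 CPM in the control libraries, 45.0, 46.5 and 45.0 in the labelled Rasa1-KO libraries, 49.0, 47.0 and 52.7 in Nf2-KO and 32.5, 37.1 and 36.1 in the labelled double-KO libraries. Control libraries were lowest and the 6 libraries with low Nf2 highest (log2 fold change 0.93 ± 0.10 SE, edgeR adjusted p = 2.3e-05).

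Cdc6 (chr11:98907709-98923942), the partner of Cdt1 in loading, followed another order. It was at 13.7, 11.3 and 10.9 CPM in the control libraries, 13.1, 13.4 and 12.8 in the labelled Rasa1-KO libraries, 18.9, 19.9 and 20.7 in Nf2-KO and 16.9, 17.7 and 19.6 in the labelled double-KO libraries. Labelled Rasa1-KO libraries lay within the control range, and both Nf2-KO (log2 fold change 0.73 ± 0.11 SE, edgeR adjusted p = 0.00032) and labelled double-KO libraries were above it.

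Of the 5 genes of DNA synthesis at the fork, Pcna, Rfc4 and Pola1 rose in Nf2-KO. Pcna was at 116, 79.4 and 62.1 CPM in the control libraries, 147, 139 and 141 in the labelled Rasa1-KO libraries, 159.6, 170.2 and 178 in Nf2-KO and 114, 99.3 and 106 in the labelled double-KO libraries. The unnumbered control library reached the level of the labelled double-KO libraries, and Nf2-KO was highest (log2 fold change 0.98 ± 0.18 SE, edgeR adjusted p = 0.001). Rfc4, a subunit of the loader of that clamp, was at 10.6, 5.94 and 7.06 CPM in the control libraries, 15.1, 13.8 and 14.5 in the labelled Rasa1-KO libraries, 13.0, 15.0 and 15.7 in Nf2-KO and 8.65, 10.9 and 9.77 in the labelled double-KO libraries. The labelled Rasa1-KO and Nf2-KO libraries overlapped and were above all others (log2 fold change 0.89 ± 0.19 SE, edgeR adjusted p = 0.003). Prim1, a primase subunit, and Fen1, the flap endonuclease, did not pass, with log2 fold changes of 0.51 ± 0.20 SE and 0.34 ± 0.23 SE. Both were called once the unnumbered control library was left out, at 0.86 for Prim1 (edgeR adjusted p = 1.6e-05) and 0.70 for Fen1 (edgeR adjusted p = 0.0016).

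Of the 3 genes of nucleotide supply, Rrm1 and Rrm2 rose in Nf2-KO, with log2 fold changes over the role from 0.10 to 1.25. Rrm2 (chr12:24708254-24714146), the regulated subunit of ribonucleotide reductase, was at 29.4, 30.6 and 36.9 CPM in the control libraries, 88.7, 93.7 and 90.3 in the labelled Rasa1-KO libraries, 80.5, 79.7 and 70.1 in Nf2-KO and 47.2, 57.1 and 54.1 in the labelled double-KO libraries. The groups did not overlap, and it was the only member with a labelled Rasa1-KO mean above Nf2-KO among those that rose in both. Its log2 fold change in Nf2-KO was 1.25 ± 0.11 SE (edgeR adjusted p = 6.4e-06). Tyms (chr5:30038546-30073645), thymidylate synthase, was at 41.1, 30.9 and 28.6 CPM in the control libraries, 28.2, 26.5 and 25.8 in the labelled Rasa1-KO libraries, 33.8, 35.3 and 38.6 in Nf2-KO and 34.5, 29.5 and 30.2 in the labelled double-KO libraries. The unnumbered control library was above all others, and no difference from control passed the test with it. Without it, Tyms was called in Nf2-KO at 0.28 (edgeR adjusted p = 0.029), against 0.10 ± 0.13 SE with it. With another single library left out, the value of Tyms was as low as -0.013.

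Uhrf1, which couples DNA methylation to replication, was at 61.2, 49.8 and 37.2 CPM in the control libraries, 57.3, 62.7 and 65.3 in the labelled Rasa1-KO libraries, 92.7, 90.7 and 88.8 in Nf2-KO and 72.7, 61.0 and 58.8 in the labelled double-KO libraries. Nf2-KO was above all other libraries (log2 fold change 0.88 ± 0.16 SE, edgeR adjusted p = 0.00092). E2f1 (chr2:154559400-154569892), an activator of S-phase genes, was at 4.50, 6.18 and 7.24 CPM in the control libraries, 5.19, 5.46 and 4.80 in the labelled Rasa1-KO libraries, 8.11, 6.83 and 6.45 in Nf2-KO and 6.99, 9.23 and 7.97 in the labelled double-KO libraries. Each knockout group overlapped with control, whose unnumbered library was lowest of all, and no difference from control passed (edgeR adjusted p = 0.27 in Nf2-KO).

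Among mitotic genes, all 4 of cyclins and Cdk1 rose in Nf2-KO. Ccnb2 (chr9:70407689-70421554), cyclin B2, was at 23.4, 15.2 and 12.5 CPM in the control libraries, 46.2, 42.4 and 47.7 in the labelled Rasa1-KO libraries, 57.6, 59.8 and 64.0 in Nf2-KO and 29.8, 28.3 and 30.2 in the labelled double-KO libraries. The groups did not overlap, and the log2 fold change in Nf2-KO was 1.82 ± 0.19 SE (edgeR adjusted p = 1.4e-05). Cdk1, the kinase that drives entry into mitosis, was at 52.5, 29.4 and 25.6 CPM in the control libraries, 72.3, 74.0 and 74.0 in the labelled Rasa1-KO libraries, 85.3, 91.0 and 95.4 in Nf2-KO and 50.7, 44.1 and 41.0 in the labelled double-KO libraries. The unnumbered control library exceeded the labelled double-KO libraries, and the 6 libraries with low Nf2 were above all others (log2 fold change 1.34 ± 0.22 SE, edgeR adjusted p = 0.00045). Ccnb1, cyclin B1, was at 35.1, 28.8 and 23.1 CPM in the control libraries, 64.6, 61.0 and 64.2 in the labelled Rasa1-KO libraries, 80.5, 87.2 and 92.2 in Nf2-KO and 43.7, 47.0 and 46.1 in the labelled double-KO libraries. Its groups did not overlap (log2 1.58 ± 0.14 SE in Nf2-KO). Ccna2, cyclin A2, was at 58.6, 38.2 and 33.6 CPM in the control libraries, 92.1, 84.8 and 86.0 in the labelled Rasa1-KO libraries, 115, 122 and 118 in Nf2-KO and 55.7, 52.7 and 54.4 in the labelled double-KO libraries. Labelled double-KO libraries lay within the control range, labelled Rasa1-KO above both and Nf2-KO highest (log2 1.44 ± 0.17 SE in Nf2-KO).

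All 6 mitotic kinase and passenger genes rose as well. Aurkb, the kinase of the chromosomal passenger complex, was at 14.6, 11.4 and 10.9 CPM in the control libraries, 28.5, 28.9 and 30.0 in the labelled Rasa1-KO libraries, 40.9, 40.8 and 43.0 in Nf2-KO and 23.4, 19.6 and 19.8 in the labelled double-KO libraries. The groups did not overlap (log2 fold change 1.75 ± 0.12 SE, edgeR adjusted p = 9.3e-07). Its partner Birc5, survivin, was at 13.1, 12.6 and 10.6 CPM in the control libraries, 19.1, 20.6 and 21.3 in the labelled Rasa1-KO libraries, 27.5, 26.5 and 29.5 in Nf2-KO and 17.9, 22.3 and 21.2 in the labelled double-KO libraries. Labelled Rasa1-KO and labelled double-KO libraries overlapped, both above control and below Nf2-KO (log2 1.20 ± 0.12 SE). Plk1, a kinase of spindle and centrosome, was at 8.46, 9.75 and 9.48 CPM in the control libraries, 10.6, 13.6 and 12.3 in the labelled Rasa1-KO libraries, 19.5, 17.6 and 17.4 in Nf2-KO and 11.8, 14.1 and 12.4 in the labelled double-KO libraries. The order of its groups was the same as for Birc5 (log2 0.98 ± 0.13 SE in Nf2-KO).

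The 4 genes of the spindle checkpoint and anaphase-promoting complex, the 3 of centromere and kinetochore and the 4 of spindle motors and assembly all rose in Nf2-KO. Cdc20, the activator of the anaphase-promoting complex, was at 28.5, 22.7 and 17.4 CPM in the control libraries, 44.4, 41.9 and 44.6 in the labelled Rasa1-KO libraries, 55.2, 54.4 and 62.1 in Nf2-KO and 34.3, 32.0 and 33.4 in the labelled double-KO libraries. The 6 libraries with low Nf2 were highest, and each labelled double-KO library was above each control library (log2 fold change 1.32 ± 0.15 SE, edgeR adjusted p = 3.1e-05). Cenpa, the centromeric histone, was at 13.8, 9.39 and 10.4 CPM in the control libraries, 19.4, 20.2 and 21.3 in the labelled Rasa1-KO libraries, 25.0, 24.8 and 24.7 in Nf2-KO and 14.4, 14.5 and 12.9 in the labelled double-KO libraries. The control and labelled double-KO libraries overlapped, and the 6 libraries with low Nf2 were above them (log2 1.15 ± 0.14 SE in Nf2-KO). Cenpf, a protein of the outer kinetochore, was at 28.7, 35.3 and 35.3 CPM in the control libraries, 58.4, 66.2 and 56.0 in the labelled Rasa1-KO libraries, 104, 95.7 and 81.1 in Nf2-KO and 64.6, 53.2 and 53.6 in the labelled double-KO libraries. Every control library was below every other library, and Nf2-KO was highest (log2 1.50 ± 0.13 SE in Nf2-KO).

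Kif11, the motor that separates spindle poles, was at 74.5, 48.6 and 46.4 CPM in the control libraries, 93.8, 89.3 and 91.1 in the labelled Rasa1-KO libraries, 124, 139 and 136 in Nf2-KO and 75.7, 70.3 and 76.3 in the labelled double-KO libraries. The unnumbered control library lay among the labelled double-KO libraries, and Nf2-KO was highest (log2 1.24 ± 0.16 SE in Nf2-KO). Tpx2, which activates the kinase Aurora A on the spindle, was at 26.7, 23.7 and 22.0 CPM in the control libraries, 46.2, 48.8 and 47.9 in the labelled Rasa1-KO libraries, 73.8, 76.1 and 74.7 in Nf2-KO and 32.9, 33.5 and 32.7 in the labelled double-KO libraries. The groups did not overlap (log2 1.63 ± 0.09 SE in Nf2-KO).

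Anln (chr9:22331214-22389211), anillin of the cleavage furrow, had the largest change of the 50 genes in Nf2-KO with all libraries, where all 5 genes of midzone and cytokinesis rose. It was at 32.4, 37.2 and 36.4 CPM in the control libraries, 93.2, 99.6 and 91.3 in the labelled Rasa1-KO libraries, 135, 136 and 128 in Nf2-KO and 49.1, 57.9 and 63.7 in the labelled double-KO libraries. The control libraries agreed closely with each other, no groups overlapped, and the mean rose from 35.3 ± 2.56 CPM in control to 133 ± 4.71 CPM in Nf2-KO (SD, n = 3 each; log2 fold change 1.91 ± 0.11 SE, edgeR adjusted p = 2.2e-07). Without the unnumbered control library its log2 fold change was 1.86, behind Ccnb2 at 2.13, Aurkb at 1.90 and Aurka, the spindle pole kinase Aurora A, at 1.86.

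Of the mitotic chromosome genes, Top2a, which untangles sister DNA, was at 187, 160.0 and 144 CPM in the control libraries, 306, 303 and 307 in the labelled Rasa1-KO libraries, 430.0, 472 and 452 in Nf2-KO and 255, 263 and 271 in the labelled double-KO libraries. The groups did not overlap (log2 fold change 1.46 ± 0.10 SE, edgeR adjusted p = 9.8e-07). Mki67 (chr7:135689784-135716450), which encodes Ki-67, a protein that coats mitotic chromosomes, was at 75.5, 117 and 111 CPM in the control libraries, 105, 117 and 98.1 in the labelled Rasa1-KO libraries, 226, 209.6 and 181 in Nf2-KO and 146, 159.7 and 164 in the labelled double-KO libraries. Labelled Rasa1-KO libraries overlapped with control, whereas Nf2-KO (log2 fold change 1.02 ± 0.16 SE, edgeR adjusted p = 0.00031) and labelled double-KO libraries were above it.

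The 2 mitotic transcription factors differed. Mybl2 was at 5.68, 6.28 and 5.50 CPM in the control libraries, 7.55, 7.86 and 7.10 in the labelled Rasa1-KO libraries, 13.9, 12.9 and 13.1 in Nf2-KO and 6.91, 9.26 and 7.89 in the labelled double-KO libraries. Nf2-KO stood above all other libraries (log2 fold change 1.19 ± 0.13 SE, edgeR adjusted p = 2.3e-05). Foxm1 (chr6:128362994-128375886) was at 7.79, 15.0 and 16.0 CPM in the control libraries, 11.7, 16.1 and 10.7 in the labelled Rasa1-KO libraries, 20.9, 15.0 and 16.0 in Nf2-KO and 14.9, 15.3 and 16.8 in the labelled double-KO libraries. Its libraries overlapped in every comparison, and it was the only mitotic gene that did not pass in Nf2-KO (edgeR adjusted p = 0.19).

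**Figure D4:**
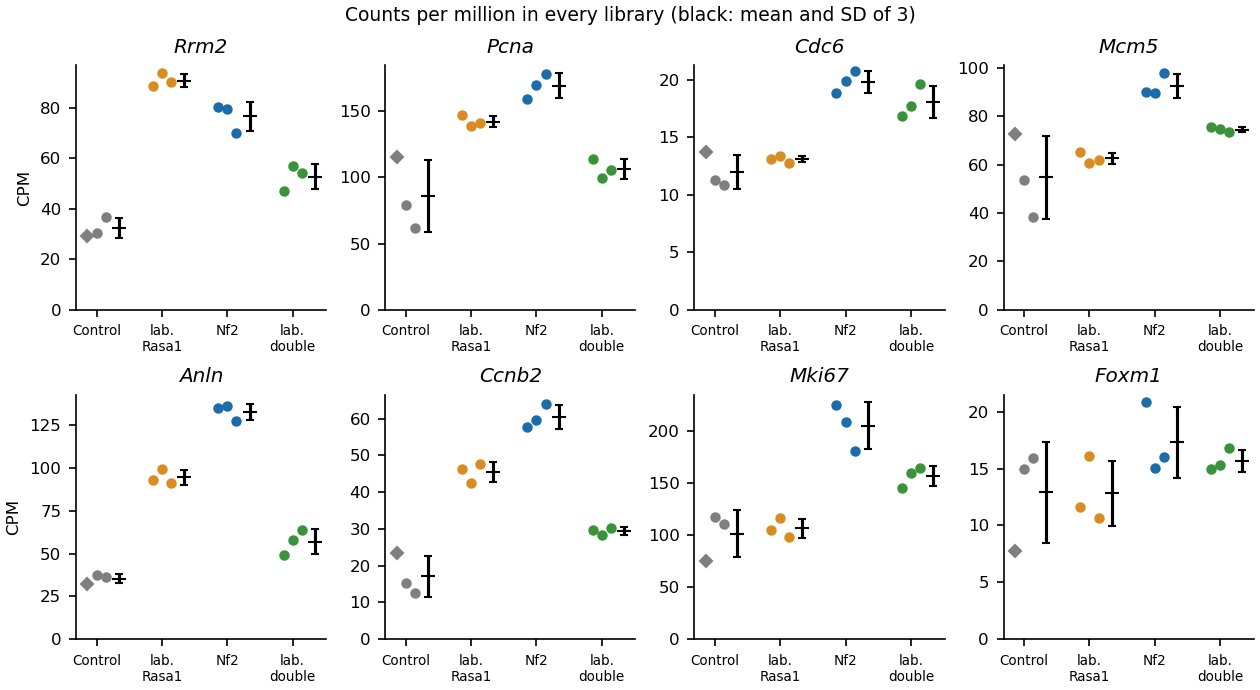
8 members in every library. CPM are plotted from 0 for 4 S-phase genes (top row) and 4 mitotic genes (bottom row), the diamond marks the unnumbered control library, and black bars give the mean and SD of 3 libraries. Rrm2, Anln and Ccnb2 show groups that do not overlap, Cdc6 and Mki67 show labelled Rasa1-KO at the control level, and Foxm1 overlaps throughout.

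In labelled Rasa1-KO against control, most mitotic genes rose and most S-phase genes did not pass. Of 30 mitotic genes 26 rose and 0 fell, and of 20 S-phase genes 6 rose and 0 fell (edgeR adjusted p), against 19.7% of tested genes higher and 22.2% lower. The medians were 0.86 for mitotic genes (range -0.01 to 1.42), 0.22 for S-phase genes (range -0.32 to 1.49) and -0.08 over all tested genes. When the unnumbered control library was left out, 28 mitotic and 16 S-phase genes rose, including all those called before, against 30.3% of tested genes higher and 30.2% lower, and the S-phase median was 0.49. The study's rule left 0 members, against 9.27% of tested genes, and without the unnumbered control library 1, Ccnb2, against 12.9%. Of the 32 calls by adjusted p, 29 held whichever single library was left out, again with no share of all called genes beside it. Mcm6, Plk1 and Mybl2 were lost in at least 1 fit.

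The 6 S-phase genes that rose in labelled Rasa1-KO were Rrm2 (log2 fold change 1.49 ± 0.12 SE, edgeR adjusted p = 2.6e-06), Rfc4 (log2 0.88 ± 0.19 SE), Cdt1 (log2 0.80 ± 0.10 SE), Pcna (log2 0.73 ± 0.18 SE), Cdc45 of the helicase (log2 0.62 ± 0.16 SE) and Mcm6 (log2 0.44 ± 0.13 SE). Rrm2 had the largest value of all 50 genes in this comparison with all libraries, whereas without the unnumbered control library Ccnb2 was ahead of it, at 1.71 against 1.43. Among mitotic genes, Anln (log2 fold change 1.42 ± 0.11 SE, edgeR adjusted p = 2.4e-06) and Ccnb2 (log2 fold change 1.41 ± 0.18 SE, edgeR adjusted p = 0.00012) rose most with all libraries, and without that library Ccnb2 and Cdk1 (1.42) did, with Anln at 1.37. Those that did not pass were Mki67 (log2 0.07 ± 0.16 SE), Foxm1 (log2 -0.01 ± 0.25 SE), Kif23 (log2 0.25 ± 0.12 SE) and Bub3 (log2 0.45 ± 0.19 SE). In a fit that dropped the unnumbered control library, Kif23 (0.39) and Bub3 (0.74) were called, and Mki67 was at -0.10 and still did not pass (edgeR adjusted p = 0.45).

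In labelled double-KO against control, 17 of 30 mitotic genes rose and 0 fell, and 3 of 20 S-phase genes rose and 0 fell (edgeR adjusted p), against 4.0% of tested genes higher and 2.46% lower. The medians were 0.47 for mitotic genes (range 0.16 to 0.79), 0.31 for S-phase genes (range -0.10 to 0.71) and -0.04 over all tested genes. With the unnumbered control library left out 29 mitotic and 15 S-phase genes rose, including all those called before, against 17.2% of tested genes higher and 12.9% lower. Without any other single library the counts were 5 to 12 and 1 to 3, fewest without the labelled double-KO library numbered 3. For those fits the share of all tested genes is not given. The S-phase median ran from 0.20 to 0.50 with 1 library left out at a time, the highest without the unnumbered control library. In a fit of only these 2 groups both counts were 0, against 0.0510% of tested genes higher and 0.0510% lower. With the numbers of the table names as a replicate block, where all 3 pairs of these libraries deviated together, they were 20 and 5, against 8.03% of tested genes higher and 5.82% lower. Of the 20 called members, 6 (Rrm2, Cenpf, Anln, Top2a, Aurkb and Birc5) were called whichever single library was left out. The study's rule left 0 members, against 2.03% of tested genes, and also 0 without the unnumbered control library, against 4.43%.

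The 3 S-phase genes were Rrm2 (log2 fold change 0.71 ± 0.11 SE, edgeR adjusted p = 0.0039), Cdc6 (log2 fold change 0.59 ± 0.11 SE, edgeR adjusted p = 0.0096) and Cdt1 (log2 fold change 0.43 ± 0.10 SE, edgeR adjusted p = 0.025). The mitotic genes that rose most were Cenpf (log2 fold change 0.79 ± 0.13 SE, edgeR adjusted p = 0.005) and Ccnb2 (log2 fold change 0.79 ± 0.18 SE, edgeR adjusted p = 0.026) with all libraries. Without the unnumbered control library they were Ccnb2 at 1.09 and Aurkb at 0.91, with Cenpf at 0.70. Mki67 was also higher (log2 fold change 0.63 ± 0.16 SE, edgeR adjusted p = 0.035), as were Anln (log2 0.69 ± 0.11 SE), Top2a (log2 0.69 ± 0.10 SE), Aurkb (log2 0.76 ± 0.12 SE), Birc5 (log2 0.75 ± 0.12 SE), Ccnb1 (log2 0.65 ± 0.13 SE) and Plk1 (log2 0.47 ± 0.13 SE). Cdk1 (log2 0.34 ± 0.21 SE), Ccna2 (log2 0.32 ± 0.16 SE), Cenpa (log2 0.31 ± 0.13 SE), Kif11 (log2 0.39 ± 0.15 SE), Cdc20 (log2 0.54 ± 0.15 SE) and Mybl2 (log2 0.46 ± 0.13 SE) did not pass. Each of these 6 was called once the unnumbered control library was left out, at 0.72 for Cdk1, 0.60 for Ccna2, 0.50 for Cenpa, 0.64 for Kif11, 0.73 for Cdc20 and 0.45 for Mybl2 on the log2 scale. With another single library left out, they went as low as 0.16 for Cdk1, 0.18 for Ccna2 and 0.22 for Cenpa. Kif11 went as low as 0.28, Cdc20 0.39 and Mybl2 0.35. These 3 comparisons share the control libraries, so their values stand side by side and their likeness is no separate result. With the labels exchanged, labelled Rasa1-KO and labelled double-KO trade the values given here.

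**Figure D5:**
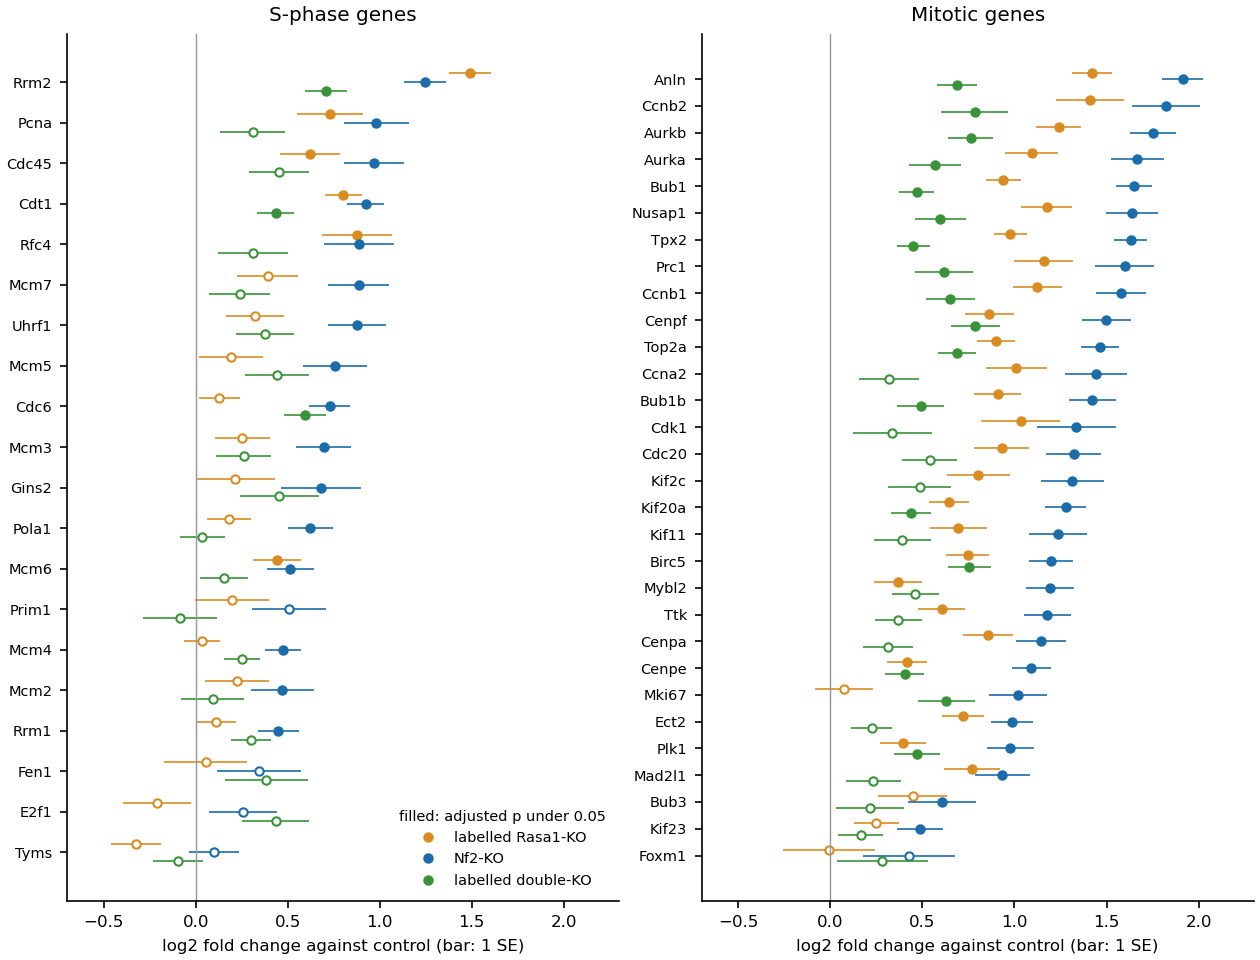
Log2 fold changes of the 50 members against control. Points give the fitted log2 fold change in labelled Rasa1-KO, Nf2-KO and labelled double-KO, bars 1 standard error, and filled points an edgeR adjusted p under 0.05, with genes ordered by the value in Nf2-KO. The mitotic values in Nf2-KO lie between 0.43 and 1.91, and the S-phase values between 0.10 and 1.25.

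The knockout groups were also compared with each other. Nf2-KO was above labelled Rasa1-KO for 14 of 30 mitotic genes and 2 of 20 S-phase genes, and below for 0 (edgeR adjusted p), against 1.74% of tested genes higher and 1.92% lower. The medians were 0.50 and 0.39 against -0.01 over all tested genes. Mki67 (log2 0.95 ± 0.16 SE) and Mybl2 (log2 0.83 ± 0.13 SE) differed most, and the 2 S-phase genes were Cdc6 (log2 0.60 ± 0.11 SE) and Mcm4 (log2 0.44 ± 0.10 SE). When the unnumbered control library was left out, which belongs to neither group, 25 mitotic and 13 S-phase genes were higher and 0 lower, against 6.73% of tested genes higher and 5.48% lower. In a fit of only these 2 groups the counts were 27 and 17, the S-phase count made up of 16 higher and Rrm2 lower, against 13.8% of tested genes higher and 12% lower. Without any 1 library of the 2 groups the counts were 5 to 7 and 0 to 1. The share of all tested genes in those fits is not given, so the drop is not read as particular to the members. Of the 16 calls by adjusted p, 5 held whichever single library was left out, and Cdc6 and Mcm4 were among those lost. The study's rule left 0 members, against 1.29% of tested genes, and 0 without the unnumbered control library, against 1.33%.

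Labelled double-KO was below Nf2-KO for 26 of 30 mitotic genes and 10 of 20 S-phase genes and above for 0 (edgeR adjusted p), against 15.3% of tested genes lower and 16.9% higher. The medians were -0.83 and -0.41 against 0.01 over all tested genes. Anln (log2 fold change -1.23 ± 0.11 SE, edgeR adjusted p = 8.1e-06) and Tpx2 (log2 fold change -1.18 ± 0.09 SE, edgeR adjusted p = 3e-06) fell most among mitotic genes, and Pcna (log2 fold change -0.67 ± 0.18 SE, edgeR adjusted p = 0.013) and Mcm7 (log2 fold change -0.65 ± 0.17 SE, edgeR adjusted p = 0.011) among S-phase genes. Foxm1 (log2 -0.14 ± 0.25 SE), Mki67 (log2 -0.39 ± 0.16 SE), Bub3 (log2 -0.39 ± 0.19 SE) and Kif23 (log2 -0.32 ± 0.12 SE) were the mitotic genes that did not pass. In a fit that dropped the unnumbered control library 29 mitotic and 14 S-phase genes were lower, against 23.3% of tested genes lower and 24.2% higher, with Foxm1 the mitotic gene that still did not pass. Without 1 library of the 2 groups the S-phase count was as low as 4. As the share of all tested genes in that fit is not given, this count is not read as particular to the members. Of the 36 calls by adjusted p, 29 held whichever single library was left out, and Pcna was among those lost. By the study's rule 0 members passed, against 7.69% of tested genes, and 0 without the unnumbered control library, against 7.76%.

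Labelled double-KO was lower than labelled Rasa1-KO for much of the mitotic list, whereas the S-phase calls were near the share of all genes. Of 30 mitotic genes 15 were lower and 1 higher, and of 20 S-phase genes 3 were lower and 2 higher (edgeR adjusted p), against 14.0% of tested genes lower and 16.3% higher. The medians were -0.41 and -0.06 against 0.00 over all tested genes. Anln (log2 -0.74 ± 0.11 SE) and Cdk1 (log2 -0.70 ± 0.21 SE) fell most among mitotic genes, and all 4 of cyclins and Cdk1 were lower. Mki67 was the mitotic gene that was higher (log2 fold change 0.56 ± 0.16 SE, edgeR adjusted p = 0.019). Rrm2 (log2 fold change -0.78 ± 0.11 SE, edgeR adjusted p = 0.00044), Rfc4 (log2 -0.57 ± 0.19 SE) and Cdt1 (log2 -0.37 ± 0.10 SE) were lower, and E2f1 (log2 fold change 0.65 ± 0.18 SE, edgeR adjusted p = 0.021) and Cdc6 (log2 fold change 0.46 ± 0.11 SE, edgeR adjusted p = 0.0093) higher. With the labels of these 2 groups exchanged, each of these values changes sign. With the unnumbered control library left out, 19 mitotic genes were lower and 1 higher, and 6 S-phase genes lower and 4 higher, against 22.3% of tested genes lower and 24.1% higher. Without 1 library of the 2 groups the counts of calls were 6 to 13 and 2 to 3, fewest without the labelled double-KO library numbered 3. All tested genes were not counted beside these fits here. Of the 21 calls by adjusted p, 7 held whichever single library was left out. Cdk1, Ccnb1, Ccnb2, Mki67, Rfc4, Cdt1, E2f1 and Cdc6 were among those lost in at least 1 fit. By the study's rule 0 members passed, against 5.66% of tested genes, and 0 without the unnumbered control library, against 5.79%.

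The interaction asked whether the difference of the labelled double-KO from control departed from the sum of the 2 single differences on the log2 scale. It was below 0 for 28 of 30 mitotic genes and 11 of 20 S-phase genes and above 0 for 0 (edgeR adjusted p), against 24.9% of tested genes below and 27.4% above. The medians were -1.66 for mitotic and -0.73 for S-phase genes, against 0.09 over all tested genes. With the labels exchanged it was below 0 for 22 mitotic and 6 S-phase genes and above 0 for 0, against 3.72% of tested genes below and 2.69% above, with medians of -1.06 and -0.66. When the unnumbered control library was left out, 28 mitotic genes and 18 S-phase genes were called, the latter 17 below 0 and E2f1 above it, against 32.5% of tested genes below and 32.9% above.

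Other genes of the same processes were read from lists drawn up with the members. Of 32 other mitotic genes, 32 rose in Nf2-KO, 27 in labelled Rasa1-KO and 8 in labelled double-KO, and 0 fell in any of these (edgeR adjusted p), against 20.6%, 19.7% and 4.0% of tested genes higher, with median log2 fold changes of 1.37, 0.88 and 0.40. With the unnumbered control library left out, 32, 28 and 25 rose and 0 fell, against 30.6%, 30.3% and 17.2% of tested genes higher. Nek2, a centrosomal kinase, was at 18.5, 14.1 and 10.9 CPM in the control libraries, 39.2, 40.6 and 41.4 in the labelled Rasa1-KO libraries, 45.8, 49.3 and 50.9 in Nf2-KO and 25.1, 19.8 and 20.6 in the labelled double-KO libraries. The 6 libraries with low Nf2 were highest (log2 1.75 ± 0.17 SE in Nf2-KO and 1.48 ± 0.17 SE in labelled Rasa1-KO). Next to Nek2 among called genes, Hmmr, a spindle protein, rose most in Nf2-KO (log2 1.63 ± 0.11 SE) and Pttg1, securin, in labelled Rasa1-KO (log2 1.42 ± 0.22 SE). In labelled double-KO, Kif18b (log2 0.72 ± 0.14 SE) and Cep55 (log2 0.66 ± 0.11 SE) rose most of the called genes. The largest value of the list there, 0.80, did not pass.

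Of 30 other S-phase genes, 23 rose in Nf2-KO, 12 in labelled Rasa1-KO and 3 in labelled double-KO, and 0 fell in any of these (edgeR adjusted p), against the same shares of tested genes, 20.6%, 19.7% and 4.0%, with medians of 0.69, 0.41 and 0.26. The counts without the unnumbered control library were 29, 21 and 23 higher and 0 lower, against the shares given for it above, 30.6%, 30.3% and 17.2%. Dut, which clears dUTP from the nucleotide pool, was at 50.3, 35.0 and 29.8 CPM in the control libraries, 112, 107 and 118 in the labelled Rasa1-KO libraries, 115, 119 and 128 in Nf2-KO and 50.4, 57.6 and 54.9 in the labelled double-KO libraries. It rose in both groups with low Nf2 (log2 1.65 ± 0.16 SE and 1.55 ± 0.16 SE). Dbf4, which activates the kinase that fires origins, was at 21.8, 17.8 and 18.2 CPM in the control libraries, 43.3, 40.5 and 40.5 in the labelled Rasa1-KO libraries, 47.6, 51.6 and 47.4 in Nf2-KO and 20.9, 19.3 and 20.8 in the labelled double-KO libraries. Labelled double-KO libraries lay within the control range, and both groups with low Nf2 were above it (log2 1.34 ± 0.10 SE in Nf2-KO and 1.10 ± 0.10 SE in labelled Rasa1-KO). In labelled double-KO, Tk1, thymidine kinase (log2 0.76 ± 0.16 SE), and Mcm8 (log2 0.50 ± 0.12 SE) rose most of the called genes.

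Genes of the factors known to act on both lists were counted too. Of 15 genes of the E2F, RB and DREAM families, 4 rose and 2 fell in Nf2-KO, 5 rose and 2 fell in labelled Rasa1-KO, and 0 passed in labelled double-KO (edgeR adjusted p), against all tested genes, of which 20.6% were higher and 22.2% lower in Nf2-KO and 19.7% higher and 22.2% lower in labelled Rasa1-KO, and 4.0% higher and 2.46% lower in labelled double-KO. Leaving out the unnumbered control library, 6 rose and 2 fell in Nf2-KO, 6 rose and 3 fell in labelled Rasa1-KO, and 1 rose in labelled double-KO, against 30.6%, 30.3% and 17.2% of tested genes higher and 31.0%, 30.2% and 12.9% lower. Each of these counts, with or without that library, lay within 3 genes of what the share of all tested genes gives for 15. The medians were 0.15, 0.06 and 0.09. Lin54, the MuvB subunit that binds the CHR, rose by 0.82 ± 0.09 SE in Nf2-KO and 0.72 ± 0.09 SE in labelled Rasa1-KO, Lin9, another MuvB subunit, by 0.75 ± 0.16 SE in Nf2-KO, and E2f2 by 0.76 ± 0.18 SE in labelled Rasa1-KO. Rbl2, the pocket protein p130 of the repressive DREAM complex, was at 62.6, 73.1 and 70.9 CPM in the control libraries, 56.6, 55.1 and 50.5 in the labelled Rasa1-KO libraries, 51.0, 47.3 and 43.8 in Nf2-KO and 69.1, 66.1 and 69.8 in the labelled double-KO libraries. It was lower in both groups with low Nf2 (log2 -0.54 ± 0.10 SE and -0.35 ± 0.10 SE), as was Tfdp2, a partner of E2F factors (log2 -0.67 ± 0.20 SE and -0.62 ± 0.20 SE).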

How the data were processed

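RNA of S1 tumorspheres was sequenced by the submitters after ribosomal RNA removal with a stranded total RNA kit, trimmed with Trimmomatic 0.38, aligned to mm10 with HISAT2 2.1.0 and quantified with StringTie 2.1.3b on RefSeq genes, per the submitters' processing notes and methods. The deposited files hold read counts per gene, made by the authors and not normalized, and the authors' FPKM, normalized by gene length and library size. Counts were analysed with edgeR 4.0.16 (low-count filter filterByExpr, TMM scaling, 1 quasi-likelihood fit over 12 libraries), with Benjamini-Hochberg adjustment over 18053 genes and a threshold of 0.05, and CPM were computed from the same scaling. Totals ran from 43818139 to 96674463 counts. FPKM served for levels between genes and, as log2(FPKM + 1) and log2(FPKM + 0.1), for limma 3.58.1. DESeq2 1.42.0, other fits, replicate blocks and left-out libraries were alternatives, and the closing part gives their effect. The edgeR step was tested on simulated data. No 2 libraries of a group agreed within sampling noise (median chi-square per gene of 2.16 or more). The numbers in the table names paired control with labelled double-KO libraries (correlations of 0.63, 0.31 and 0.44 between deviations from the group means). Groups follow the labels. The members and all other lists were chosen with earlier results of these data known. Members named with values in every library were a set that covers the roles and, per comparison and list, the 2 called members that rose and the 2 that fell most; of the other lists, the 2 called genes that rose and the 2 that fell most against control were named. Members named as the few exceptions to a count were picked after their values were seen. Promoter windows came from RefSeq (GRCm38.p6) for 43 of 50 members. Mcm4, Aurkb, Gins2, Tpx2, Ccna2, Kif20a and Foxm1 had no entry in that table. R 4.3.3 and Python 3.11.15 were used.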

Additional observations from a re-analysis of the deposited data

Results flagged for a closer look

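The interaction was singled out because the difference of the labelled double-KO from control departed from the sum of the other 2 differences for 11 S-phase and 28 mitotic genes (edgeR adjusted p under 0.05), by a test of that departure itself. All of these were below 0, as were 24.9% of all tested genes, while 27.4% were above it, so a called interaction in either direction was common among all genes. Under the labels as given, it was largest among S-phase genes for Rrm2 and Rfc4. For Rrm2 the 3 differences from control were 1.49 ± 0.12 SE in labelled Rasa1-KO, 1.25 ± 0.11 SE in Nf2-KO and 0.71 ± 0.11 SE in labelled double-KO, and the interaction was -2.03 ± 0.16 SE on the log2 scale (edgeR adjusted p = 1.3e-06). For Rfc4 they were 0.88 ± 0.19 SE, 0.89 ± 0.19 SE and 0.31 ± 0.19 SE, with an interaction of -1.45 ± 0.27 SE (edgeR adjusted p = 0.00083). The labelled double-KO value of Rfc4 ran from 0.16 to 0.59 with 1 library left out at a time, and it was called at 0.59 without the unnumbered control library (edgeR adjusted p = 0.0081). With the labels of the 2 groups exchanged the interactions were -0.46 for Rrm2 (edgeR adjusted p = 0.12) and -0.32 for Rfc4 (edgeR adjusted p = 0.58), so neither passed, and the S-phase genes with the largest values were then Cdc6 at -1.19 and Mcm5 at -1.01.

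Among mitotic genes the interaction was largest for Anln and Ccnb2 under the labels as given. For Anln the 3 differences from control were 1.42 ± 0.11 SE, 1.91 ± 0.11 SE and 0.69 ± 0.11 SE, with an interaction of -2.65 ± 0.15 SE (edgeR adjusted p = 1.2e-07), and for Ccnb2 they were 1.41 ± 0.18 SE, 1.82 ± 0.19 SE and 0.79 ± 0.18 SE, with an interaction of -2.45 ± 0.26 SE (edgeR adjusted p = 1.2e-05). With the labels exchanged both still passed, at -1.18 for Anln (edgeR adjusted p = 0.0012) and -1.20 for Ccnb2 (edgeR adjusted p = 0.017), but the order changed, and Mki67 at -1.58, Cenpf at -1.42 and Mybl2 at -1.29 had the largest values. Nf2 mRNA went against the labels of these 2 groups, whereas Rasa1 mRNA was below control in both, as both labels have it.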

How the results depend on the processing

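The counts of called members and the list medians were recomputed under 22 alternatives: 437 of these values stayed within 1.5 times the count or 1 SD of the median, and 115 moved. This SD is that of the list median between libraries, pooled over the 2 groups compared. In control it was 0.316 for S-phase and 0.217 for mitotic genes, and 0.021 to 0.047 in the other groups. Medians against control could thus shift far without counting as moved. Of the values of named genes, 3825 kept their side of the threshold, 161 passed it newly, 232 no longer passed and 16 that passed in at least 1 of the fits changed sign, all 16 with the labels exchanged. Among the 3825 were 69 that passed in neither fit and changed sign. By the study's rule of a fold of at least 3, 8 mitotic and 0 S-phase genes were called in Nf2-KO against control. The other comparisons of 2 groups had 0 mitotic and 0 S-phase genes by it. The values with exchanged labels that follow use the names after the exchange. In them, labelled Rasa1-KO means the libraries called labelled double-KO elsewhere in the text, and the reverse. With the labels of the 2 groups exchanged, labelled Rasa1-KO against control had 3 S-phase and 17 mitotic calls and a mitotic median of 0.47, labelled double-KO against control had 6 S-phase and 26 mitotic calls and a mitotic median of 0.86, labelled double-KO against labelled Rasa1-KO had an S-phase median of 0.062 and a mitotic median of 0.41, Nf2-KO against labelled Rasa1-KO had 10 S-phase and 26 mitotic calls and a mitotic median of 0.83, labelled double-KO against Nf2-KO had 2 S-phase and 14 mitotic calls and a mitotic median of -0.50, and the interaction had 6 S-phase calls. By its construction this exchange turned the sign of the log2 fold change of 16 named values, which became Cdc6 -0.46, Cdt1 0.37, Rrm2 0.78, E2f1 -0.65, Cdk1 0.70, Ccnb1 0.47, Ccna2 0.69, Aurkb 0.48, Cenpa 0.54, Anln 0.74, Mki67 -0.56, Rfc4 0.57, Ccnb2 0.63 and Tpx2 0.53 in labelled double-KO against labelled Rasa1-KO, Rrm2 0.54 in Nf2-KO against labelled Rasa1-KO and Rrm2 0.24 in labelled double-KO against Nf2-KO. In fits of only the groups compared, labelled Rasa1-KO against control had 3 S-phase calls, against 11.9% of tested genes higher and 13.6% lower. In such fits labelled double-KO against labelled Rasa1-KO had 11 S-phase calls. This count, of both directions together, was near the share of all tested genes, 23.8% higher and 23.4% lower. Labelled double-KO against control had 0 S-phase and 0 mitotic calls, and Nf2-KO against labelled Rasa1-KO had 17 S-phase and 27 mitotic calls. Their shares of all tested genes in these fits stand beside the counts in the comparisons above. With a replicate block by the numbers of the table names, labelled Rasa1-KO against control had 10 S-phase calls. Of all tested genes, 25.8% were called higher and 26.2% lower. In the fit without a block, all 6 S-phase calls of this comparison were higher. Under that block labelled double-KO against control had 5 S-phase calls, against 8.03% higher and 5.82% lower. Nf2-KO against labelled Rasa1-KO had 8 S-phase calls under it, against 4.38% higher and 4.28% lower. The block gave labelled double-KO against labelled Rasa1-KO an S-phase median of -0.17 and a mitotic median of -0.47. For labelled double-KO against Nf2-KO it gave an S-phase median of -0.49 and a mitotic median of -0.90. With a replicate block by the numbers of the titles, labelled double-KO against control had 7 mitotic calls, labelled double-KO against labelled Rasa1-KO had 2 S-phase and 4 mitotic calls, an S-phase median of 0.030 and a mitotic median of -0.35, and Nf2-KO against labelled Rasa1-KO had 0 S-phase and 6 mitotic calls and an S-phase median of 0.47. By DESeq2, Nf2-KO against labelled Rasa1-KO had 4 S-phase calls. With no filter on low counts, Nf2-KO against labelled Rasa1-KO had 1 S-phase call, and labelled double-KO against Nf2-KO had 5 S-phase calls. By limma on log2(FPKM + 1), labelled Rasa1-KO against control had a mitotic median of 0.69, labelled double-KO against control had 11 mitotic calls and a mitotic median of 0.29, labelled double-KO against labelled Rasa1-KO had a mitotic median of -0.37, and Nf2-KO against labelled Rasa1-KO had 6 S-phase calls. By limma on log2(FPKM + 0.1), labelled double-KO against control had 11 mitotic calls, Nf2-KO against labelled Rasa1-KO had 6 S-phase calls and a mitotic median of 0.56, and labelled double-KO against Nf2-KO had an S-phase median of -0.46 and a mitotic median of -0.87. Shares of all tested genes are not given for the title block, DESeq2, unfiltered and limma fits, so their counts say nothing particular about the members. Exchanging the labels trades the shares of the comparisons along with their counts.

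The numbers in the titles paired no groups (correlations of deviations between -0.38 and 0.40), and those of the table names paired control with labelled double-KO only. With 1 library left out at a time, labelled Rasa1-KO against control had 5 to 16 S-phase calls and an S-phase median of 0.059 to 0.49, Nf2-KO against control had a mitotic median of 1.18 to 1.50, labelled double-KO against control had 1 to 15 S-phase and 5 to 29 mitotic calls, labelled double-KO against labelled Rasa1-KO had 2 to 10 S-phase and 6 to 20 mitotic calls, an S-phase median of -0.11 to 0.0001 and a mitotic median of -0.43 to -0.38, Nf2-KO against labelled Rasa1-KO had 0 to 13 S-phase and 5 to 25 mitotic calls, labelled double-KO against Nf2-KO had 4 to 14 S-phase calls and an S-phase median of -0.45 to -0.36, and the interaction had 9 to 18 S-phase calls. The upper end of each count came when the unnumbered control library was left out. The share of all tested genes rose in that fit too, for labelled double-KO against control from 4.0% to 17.2% higher. Its shares stand beside the counts in the comparisons above, and those of the other left-out fits are not given. Except where a fit had fewer genes or libraries or another pairing by construction, the cause was not tested. The members had at least 277 counts in every library, each group had 3 libraries, and the control libraries were spread widely. The part of each of these in the counts was not tested.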

Other observations

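The promoter words of the members recurred in the other genes of the same processes. Of 27 other mitotic genes with a window, 74.1% held a CHR word, 70.4% a CCAAT box and 11.1% an E2F word. Of 23 other S-phase genes with a window, 17.4% held a CHR word, 56.5% a CCAAT box and 34.8% an E2F word. Over all 27025 genes of the promoter table the shares were 21.7%, 41.1% and 2.60%. A CCAAT box was thus also frequent among S-phase members (66.7%) and mitotic members (76.0%).

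The unnumbered control library also differed in transcripts outside the cell cycle. The 7S RNAs took 11.1% of its counts against 9.15% and 7.17% in the other control libraries, and mitochondrial genes 0.595% against 1.70% and 1.46%.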
